A study of Rattus norvegicus with 9 samples.

Results

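Hepatic glucose output, glycogen storage and fructose entry were followed through 10 genes of rat liver: G6pc, Pck1, Pck2, Fbp1, Pygl, Gys2, Slc2a2, Slc37a4, Khk and Ppp1r3b. They were taken by symbol from a deposited table of 32883 genes, and all 10 had enough reads to be tested in each comparison. Liver mRNA was sequenced from 9 male Sprague-Dawley rats, with 1 library for each rat. The normal control group held N1, N12 and N3, the DEN model group M13, M17 and M24, and the PZH administration group G27, G28 and G42. Normal control rats received a normal diet. By the study's protocol, DEN model and PZH administration rats received weekly intraperitoneal injections of 0.01% diethylnitrosamine (DEN), a liver carcinogen, for 16 weeks. The PZH administration rats were also given Pien-Tze-Huang (PZH), a traditional Chinese formula, and all rats were fasted before tissue collection. The treatment label reads PZH for the M rats as well as the G rats, so the M rats were placed in the DEN model group by the letter of their names and the 3 groups described in the study's methods. The PZH dose and the week of collection of the sequenced rats are not given in the sources used here. The study took rats at several times up to week 16, and a rat taken earlier would have had fewer injections. Livers of rats given DEN can hold fibrotic and tumor tissue beside parenchyma, and its share in these pieces is not given in the sources used here.

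In the fasted state the liver makes glucose from lactate, glycerol and amino acids and releases it into blood. Phosphoenolpyruvate carboxykinase (cytosolic Pck1, mitochondrial Pck2) makes phosphoenolpyruvate from oxaloacetate, fructose bisphosphatase (Fbp1) reverses a committed step of glycolysis, and the phosphatase G6pc frees glucose inside the endoplasmic reticulum after the transporter Slc37a4 has carried its phosphate ester in. Glycogen is built by the liver glycogen synthase Gys2 and broken down by the liver phosphorylase Pygl, with Ppp1r3b bringing protein phosphatase to the glycogen particle. Fructose is phosphorylated by ketohexokinase (Khk), and sugars cross the hepatocyte membrane through the transporter Slc2a2. Several of these genes are known to respond to glucagon, insulin and glucocorticoids.

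Total counts per rat ran from 14922973 to 27161496, with G27 the deepest, and 3 counts corresponded to between 0.125 and 0.252 CPM (reads scaled to library size), a floor that covers counting error only. CPM values use edgeR's TMM library scaling, whose factors were 0.731 to 0.799 in normal control rats, 1.21 to 1.58 in DEN model rats and 0.863 to 0.941 in PZH administration rats. The 11 hepatocyte markers (among them Alb, Ttr and Apoa1) summed to 153500 to 167900 CPM in normal control rats, 31350 to 69850 CPM in DEN model rats and 121800 to 170300 CPM in PZH administration rats. Of these markers, 8 were lower in DEN model than in normal control rats and 7 were higher in PZH administration than in DEN model rats (edgeR, adjusted p under 0.05). In the DEN model against normal control the log2 fold changes of the markers ran from -3.89 (Ttr) to -0.30 (Apoa1). Tf, Fgb and Apoa1 were not called there. All 6 cholangiocyte and ductular markers moved the other way in both comparisons, with sums of 13.4 to 21.1, 234.7 to 754 and 80.8 to 107.5 CPM in the same order of groups, and Krt7 was at 3 counts or less in every normal control rat. The 7 stellate and myofibroblast markers summed to 191.5 to 301.6, 1002 to 3108 and 584.9 to 705.5 CPM. Of these, 6 were higher in DEN model than in normal control rats and 4 were lower in PZH administration than in DEN model rats. M17 lay closest to the normal control rats within the DEN model group in each of these sums. In whole tissue, fewer hepatocytes and less RNA of a gene in each hepatocyte cannot be told apart.

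Promoter sequences are shown for G6pc and Pck1, the enzymes at the last and an early step of glucose synthesis, and for Pck2, which encodes the mitochondrial counterpart of Pck1. Each is the 250 bases before the gene's start in RefSeq (build GRCr8, plus strand), at chr10:86807409-86807658 for G6pc (named G6pc1 there), chr3:182348322-182348571 for Pck1 and chr15:32997603-32997852 for Pck2. Capitals mark matches to the 7 motifs searched on both strands.
G6pc: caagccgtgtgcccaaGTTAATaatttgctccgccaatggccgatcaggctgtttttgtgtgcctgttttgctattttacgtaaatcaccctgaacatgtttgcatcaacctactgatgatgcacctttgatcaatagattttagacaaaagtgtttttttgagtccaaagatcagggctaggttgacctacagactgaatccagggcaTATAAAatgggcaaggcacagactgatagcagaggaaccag
Pck1: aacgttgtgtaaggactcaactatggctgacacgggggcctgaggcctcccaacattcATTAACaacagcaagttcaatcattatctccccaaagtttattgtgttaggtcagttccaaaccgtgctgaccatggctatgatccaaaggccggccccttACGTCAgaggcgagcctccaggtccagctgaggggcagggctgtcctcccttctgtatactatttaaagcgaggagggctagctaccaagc
Pck2: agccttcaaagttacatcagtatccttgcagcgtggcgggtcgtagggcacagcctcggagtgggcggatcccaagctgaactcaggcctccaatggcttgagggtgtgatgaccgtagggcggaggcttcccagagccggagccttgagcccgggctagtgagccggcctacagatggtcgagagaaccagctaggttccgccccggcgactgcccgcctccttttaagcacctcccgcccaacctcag
In G6pc the capitals are the HNF1 half-site GTTAAT, at bases 234 to 229 before the start, and the TATA box TATAAA, at bases 41 to 36. In Pck1 they are the same half-site on the minus strand, at bases 192 to 187, and the cyclic AMP response element core ACGTCA, at bases 91 to 86. Pck2 held no match, and the matches printed do not overlap each other. RefSeq gave promoters for 9 of the 10 members, and Ppp1r3b is named only. GTTAAT occurred in 2 of these 9 (6.45% of 33469 rat promoters of this length), ACGTCA in 2, Pck1 and Slc37a4 (6.95%), and TATAAA in 1 (12.9%). The glucocorticoid half-site TGTTCT occurred in 1, Slc2a2 (17.5%), and 0 of the 9 held the forkhead site GTAAACA (3.21%), the HNF4 core CAAAGTC (3.95%) or the E-box CACGTG (5.59%) in this window. These matches describe letters and were not tested for binding.

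Per transcript length, the members spanned a wide range in normal liver. On the deposited FPKM scale, which corrects for length and library size, Pck1 was the most abundant member in normal control rats at 1609 ± 235 (SD, n = 3), ranked 40 among all genes. Fbp1 followed at 485.5 ± 55.5 FPKM, G6pc at 320.2 ± 122 FPKM and Slc2a2 at 178 ± 52.8 FPKM, and the neighbors in this run of 3 overlapped in range. Khk at 105 ± 35.4 FPKM overlapped with Slc37a4 at 65.2 ± 6.41 FPKM. Pygl was at 47.8 ± 8.18, Gys2 at 32.1 ± 2.86 and Ppp1r3b at 25.8 ± 4.86 FPKM, and Gys2 and Ppp1r3b were the pair among these that overlapped. Pck2 closed the order at 3.33 ± 1.27 FPKM, apart from every other member and ranked 7812.

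In the DEN model rats the order differed below the first places. Pck1 and Fbp1 still headed it, at 437.6 ± 196 and 237 ± 116 FPKM with overlapping ranges, followed by Slc2a2 at 146 ± 35.2 FPKM, which overlapped with Fbp1, and, apart from it, G6pc at 61.9 ± 13.8 FPKM. Pygl at 46.5 ± 5.58 FPKM overlapped with G6pc, and Slc37a4, Khk and Gys2 overlapped in turn at 31.7 ± 9.6, 30.8 ± 16.9 and 19.8 ± 3.85 FPKM. Pck2 stood at 13.4 ± 4.03 FPKM, overlapping with Gys2 and apart from Ppp1r3b, which was last at 4.54 ± 1.93 FPKM. In the PZH administration rats Pck2 was again last, at 5.53 ± 0.398 FPKM, below Ppp1r3b at 20.2 ± 7.15 FPKM. Their leading members were Pck1 at 1006 ± 209 FPKM and Fbp1 at 293 ± 66.1 FPKM, which did not overlap, and then Slc2a2 at 153 ± 18.8 and G6pc at 117 ± 50.3 FPKM, which did. Khk followed at 79.2 ± 28.6 FPKM, overlapping with G6pc, then Pygl at 56.0 ± 5.83 and Slc37a4 at 51.4 ± 4.31 FPKM, which overlapped, and Gys2 at 28.3 ± 4.87 FPKM, which overlapped with Ppp1r3b.

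**Figure D1:**
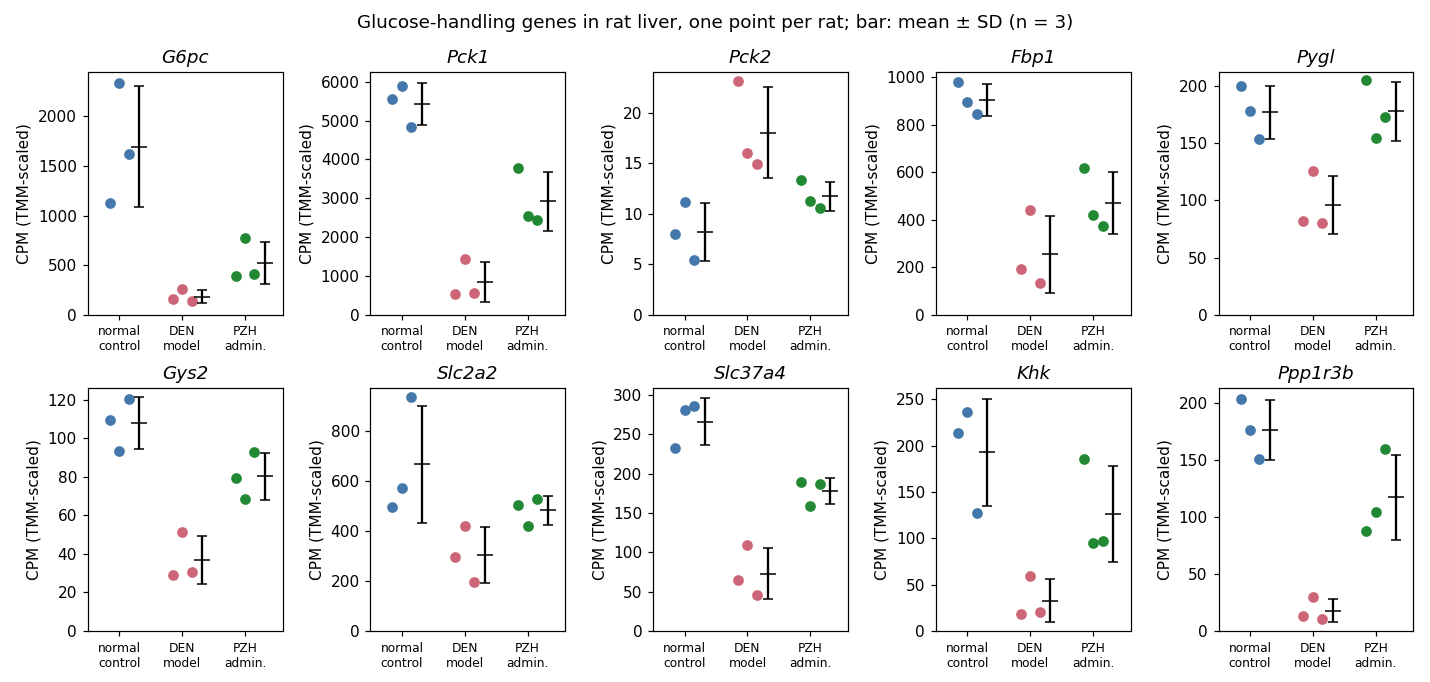
TMM-scaled CPM (linear axes from 0) of the 10 genes, with a point for each rat and the mean ± SD of 3 rats beside each group. In every panel but that of Pck2 the DEN model rats lie below the normal control rats, as for Ppp1r3b, with 10.6 to 29.6 CPM against 150.5 to 203 CPM; under hepatocyte marker scaling, which is not plotted here, 5 of these 9 fitted differences change sign.

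The comparison of the DEN model with the normal control group asks how the glucose program stood in livers exposed to the carcinogen. With TMM scaling, 9 of the 10 members were lower in the DEN model group and Pck2 was higher, each called at 0.05 after Benjamini-Hochberg adjustment over 14255 genes by edgeR's quasi-likelihood test; with scaling to the hepatocyte markers the fitted sign turned for Fbp1, Pygl, Gys2, Slc2a2 and Slc37a4. Among all genes tested, 45.8% were called in this comparison, 20.5% lower and 25.3% higher. Ppp1r3b (9.74-fold lower), G6pc (9.11-fold), Pck1 (6.32-fold) and Khk (5.79-fold) also passed the study's screen, which asks for a log2 fold change beyond 2 in either direction and an unadjusted P below 0.001, as did 12.3% of all genes tested. The median log2 fold change of the members was -1.83, against 0.03 over all genes. In all 10 members the 3 DEN model rats lay outside the range of the 3 normal control rats, which held for 58.8% of all genes. Leaving out 1 rat at a time left 7 to 10 members called, the lowest number without M13, as the share of all genes called ran from 32.7% (without M13) to 45.7% (without N3). The calls of G6pc, Pck1, Fbp1, Gys2, Slc37a4, Khk and Ppp1r3b were kept each time, while Slc2a2 lost its call without N12, N3, M13 or M24 (highest adjusted p = 0.11 in edgeR's test), Pygl without N1, M13 or M24 (0.074) and Pck2 without N1 or M13 (0.058).

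The comparison of the PZH administration with the DEN model group asks how the same genes stood in DEN-exposed rats given PZH, and it shares the DEN model rats with the comparison above. With TMM scaling, 7 of the 10 members, G6pc, Pck1, Pygl, Gys2, Slc37a4, Khk and Ppp1r3b, were higher in the PZH administration group in edgeR's test, against 19.1% of 14272 genes called in either direction and 8.72% called higher; with hepatocyte marker scaling G6pc, Pygl, Gys2 and Slc37a4 had a negative fitted sign. Fbp1, Slc2a2 and Pck2 did not pass (adjusted p = 0.19, 0.15 and 0.11 in edgeR's test). Ppp1r3b, 6.64-fold higher, was the 1 member past the study's screen, which 2.43% of all genes passed. The groups did not overlap for 8 members, against 40.9% of all genes, and the members' median log2 fold change was 1.23. These calls depended on single rats. Without M13 no member (0) was called, against 1.87% of all genes, while 7 had an unadjusted p under 0.05, and Ppp1r3b then had an adjusted p of 0.051 in edgeR's test. Without M24 or G42 Ppp1r3b alone was called (1, against 5% and 8.22% of all genes), so that this count was near the share of all genes. Without G28 Ppp1r3b was joined by Gys2 (2, against 7.94%), without G27 by Gys2 and G6pc (3, against 14.9%), and without M17 Fbp1 and Slc2a2 were called too (9, against 22.6%).

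The comparison of the PZH administration with the normal control group, which shares rats with both others, asks how the same genes stood beside normal liver. G6pc was the 1 member called (lower in the PZH administration group, edgeR's test), against 5.21% of 13348 genes called and 1.15% called lower. No member (0) passed the study's screen, which 2.32% of all genes passed. At an unadjusted p under 0.05 in edgeR's test 5 members were lower, against 18.5% of all genes in either direction. The groups did not overlap for 5 members, G6pc, Pck1, Fbp1, Gys2 and Slc37a4, all lower in the PZH administration rats, against 24.2% of all genes. The members' median log2 fold change was -0.58. G6pc lost its call without N12, N3 or G42, where 0 members and 2.44%, 3.14% and 2.66% of all genes were called in edgeR's test. At an unadjusted p under 0.05 in these fits there were 5, 6 and 6 members, and the share of all genes at that level is not given here. Without G27 the members called were G6pc, Pck1, Fbp1 and Khk (4, against 9.73% of all genes). With DESeq2 in place of edgeR, 3 members were called, G6pc, Pck1 and Fbp1, against 6.82% of all genes.

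**Figure D2:**
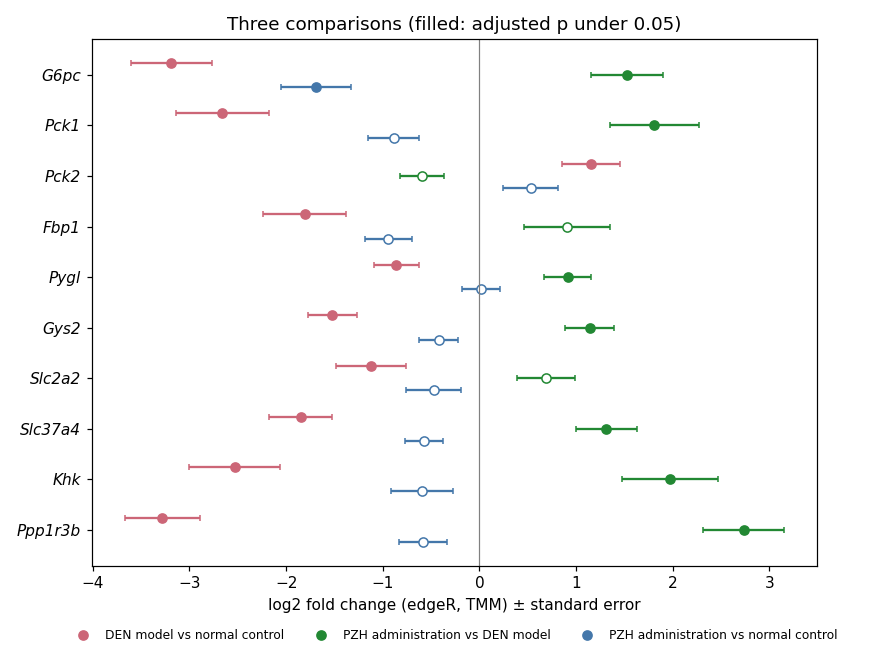
Log2 fold change ± standard error of each gene (x axis, edgeR with TMM scaling, 3 rats against 3) in the 3 comparisons, with filled points for an adjusted p under 0.05. The DEN model points lie left of 0 for all genes except Pck2, the PZH administration against DEN model points lie right of 0 for all except Pck2, and of the PZH administration points against normal control that of G6pc (-1.69) is filled. Hepatocyte marker scaling turns the sign of 5 genes in the first comparison and 6 in the second, both plotted separately. In the last comparison, not plotted with that scaling, it turns the sign of Gys2.

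G6pc (chr10:89285855-89296213 in the coordinates of the authors' file, whose build is not given in the sources used here) encodes the glucose-releasing phosphatase. It was at 1124, 2337 and 1621 CPM in N1, N12 and N3, at 155, 263 and 135 CPM in M13, M17 and M24, and at 389.6, 771 and 411 CPM in G27, G28 and G42. The 3 groups did not overlap, and each PZH administration rat lay between the other groups. The log2 fold change was -3.19 (SE 0.42, edgeR adjusted p = 0.00069) in the DEN model against normal control, 1.53 (SE 0.37, edgeR adjusted p = 0.027) in PZH administration against DEN model and -1.69 (SE 0.36, edgeR adjusted p = 0.032) in PZH administration against normal control.

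Slc37a4 (chr8:48716939-48723024), the transporter that feeds G6pc, had 232, 281 and 285.6 CPM in N1, N12 and N3, 64.6, 109 and 45.6 CPM in M13, M17 and M24, and 189.7, 159.6 and 186 CPM in G27, G28 and G42. Its groups were again apart, in the same order as for G6pc. The log2 fold changes were -1.85 (SE 0.32, edgeR adjusted p = 0.0024), 1.31 (SE 0.32, edgeR adjusted p = 0.027) and -0.58 (SE 0.20, edgeR adjusted p = 0.15) in the 3 comparisons, in the order given for G6pc.

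Pck1 (chr3:171213936-171219871), the cytosolic carboxykinase, was at 5549, 5899 and 4827 CPM in N1, N12 and N3, at 541, 1430 and 570 CPM in M13, M17 and M24, and at 3788, 2532 and 2433 CPM in G27, G28 and G42. The groups did not overlap, with M17 the highest of the DEN model rats and G27 the highest of the PZH administration rats. Its log2 fold changes were -2.66 (SE 0.48, edgeR adjusted p = 0.0029), 1.81 (SE 0.46, edgeR adjusted p = 0.031) and -0.89 (SE 0.26, edgeR adjusted p = 0.095). Pck2 (chr15:34216833-34224193), the mitochondrial form, was at 7.96, 11.1 and 5.45 CPM in the normal control rats, 23.2, 16.0 and 14.9 CPM in the DEN model rats and 13.3, 11.3 and 10.6 CPM in the PZH administration rats, in the same order of rats. Every DEN model rat was above every other rat, and the PZH administration and normal control ranges overlapped. Its log2 fold changes were 1.16 (SE 0.30, edgeR adjusted p = 0.013), -0.59 (SE 0.23, edgeR adjusted p = 0.11) and 0.53 (SE 0.29, edgeR adjusted p = 0.37).

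Fbp1 (chr17:396180-417480), the bisphosphatase, was at 979, 895 and 846 CPM in N1, N12 and N3, at 191, 439.7 and 135 CPM in M13, M17 and M24, and at 617, 419.9 and 373 CPM in G27, G28 and G42. M17 lay inside the range of the PZH administration rats, so those groups overlapped, while the normal control rats lay above all others. The log2 fold changes were -1.81 (SE 0.43, edgeR adjusted p = 0.0092), 0.91 (SE 0.44, edgeR adjusted p = 0.19) and -0.94 (SE 0.24, edgeR adjusted p = 0.058). Without M17 the middle value was 1.53 (edgeR adjusted p = 0.012).

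Slc2a2 (chr2:114413410-114445395), the membrane transporter, was at 495.7, 572 and 933 CPM in the normal control rats, 294, 420 and 197 CPM in the DEN model rats and 502, 418 and 527 CPM in the PZH administration rats. N3 stood well above the other normal control rats, and M17 was marginally above G28, so the DEN model and PZH administration ranges met. The log2 fold changes were -1.12 (SE 0.37, edgeR adjusted p = 0.034), 0.69 (SE 0.30, edgeR adjusted p = 0.15) and -0.48 (SE 0.29, edgeR adjusted p = 0.43). On the deposited FPKM scale, which carries no TMM factor, the DEN model rats at 152.5, 178 and 108 overlapped with the normal control rats at 137, 159 and 238. The difference in Slc2a2 was called with TMM scaling and not with library totals (log2 fold change -0.28, edgeR adjusted p = 0.4).

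Among the glycogen genes, Gys2 (chr4:176638629-176679815), the liver synthase, was at 109, 93.4 and 120.2 CPM in N1, N12 and N3, at 28.9, 51.3 and 30.6 CPM in M13, M17 and M24, and at 79.2, 68.4 and 92.8 CPM in G27, G28 and G42. The 3 groups were apart, with G42 lying just under N12. Its log2 fold changes were -1.52 (SE 0.25, edgeR adjusted p = 0.0019), 1.14 (SE 0.26, edgeR adjusted p = 0.023) and -0.42 (SE 0.20, edgeR adjusted p = 0.32). Pygl (chr6:92597706-92643847), the liver phosphorylase, was at 199.5, 178 and 153 CPM in the normal control rats, 82.3, 125 and 80.3 CPM in the DEN model rats and 205, 155 and 173 CPM in the PZH administration rats. The PZH administration and normal control ranges overlapped, and the DEN model rats lay below both. The log2 fold changes were -0.86 (SE 0.23, edgeR adjusted p = 0.016), 0.91 (SE 0.24, edgeR adjusted p = 0.036) and 0.015 (SE 0.19, edgeR adjusted p = 0.98). As for Slc2a2, library totals gave no called difference between DEN model and normal control rats (-0.04, edgeR adjusted p = 0.89), and the FPKM ranges of 42.6 to 52.9 and 38.9 to 55.1 overlapped.

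Ppp1r3b (chr16:60415229-60427474), the glycogen-targeting subunit of protein phosphatase, had the largest log2 fold change among the members in both comparisons with the DEN model group. It was at 203, 176 and 150.5 CPM in N1, N12 and N3, at 13.4, 29.6 and 10.6 CPM in M13, M17 and M24, and at 88.0, 104.5 and 159 CPM in G27, G28 and G42. The DEN model rats stood far below all others, and G42 reached into the normal control range. The log2 fold changes were -3.28 (SE 0.39, edgeR adjusted p = 0.00044), 2.73 (SE 0.42, edgeR adjusted p = 0.01) and -0.58 (SE 0.25, edgeR adjusted p = 0.26).

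Khk (chr6:26810579-26820959), which commits fructose to metabolism, was at 214, 236 and 127.5 CPM in N1, N12 and N3, at 18.9, 59.1 and 20.3 CPM in M13, M17 and M24, and at 186, 95.1 and 96.7 CPM in G27, G28 and G42. G27 lay inside the normal control range and M17 stood well above M13 and M24. Its log2 fold changes were -2.53 (SE 0.47, edgeR adjusted p = 0.0032), 1.97 (SE 0.50, edgeR adjusted p = 0.03) and -0.60 (SE 0.32, edgeR adjusted p = 0.37).

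The spread within groups differed among the members. In the normal control rats the coefficient of variation of the CPM was lowest for Fbp1 (7.42%) and Pck1 (10.1%) and highest for G6pc (36%), Slc2a2 (35%) and Pck2 (34.8%). In the DEN model rats it was 69.6% for Khk, 63.5% for Fbp1, 59.6% for Pck1 and 57.4% for Ppp1r3b, and M17 was the highest DEN model rat in every member except Pck2, in which M13 was highest. In the PZH administration rats it ran from 9.24% for Slc37a4 to 41.3% for Khk. The summed CPM of the members, 2943 in M17 against 1412 in M13 and 1239 in M24, stood in the same order of rats as the summed hepatocyte markers, at 69850, 43980 and 31350 CPM. Taken singly, Pck1, Gys2 and Khk were higher in M24 than in M13, and Pck2 did not follow this order either. The part of cell makeup in these orders was not tested.

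The other genes of these pathways were counted in 4 lists, of which 63 genes were tested in each comparison. With TMM scaling 45 were called in the DEN model against normal control, 22 in the PZH administration against DEN model and 5 in the PZH administration against normal control comparison, beside 45.8%, 19.1% and 5.21% of all genes. The 22 became 4 without M13, 7 without M24, 11 without G42, 12 without G28 and 34 without M17, and the 5 became 2 without N1, N12 or G28, 3 without G42 and 8 without G27. The share of all genes called ran from 1.87% (without M13) to 22.6% (without M17) in the second comparison and from 1.51% (without N1) to 9.73% (without G27) in the last. With hepatocyte marker scaling 86.8% of all genes were called higher and 1.68% lower in the DEN model against normal control, and 0.883% higher and 80.9% lower in PZH administration against DEN model, and the counts given with that scaling for each list stand beside these shares. Of 16 other gluconeogenesis genes, 11 fell and 2 rose in the DEN model group (edgeR, adjusted p under 0.05), the list's median log2 fold change being -1.52, whereas under hepatocyte marker scaling 7 were called higher and 0 lower. The lowest called were Got1 (-2.22), a transaminase of the aspartate shuttle, Gpd1 (-2.12), which links glycerol to triose phosphates, and pyruvate carboxylase Pc (-1.997). The 2 that rose were Ldhb (1.92), a lactate dehydrogenase subunit, and G6pc3 (0.94), the broadly expressed counterpart of G6pc. Between PZH administration and DEN model rats 6 of the 16 were higher and 2 lower, with 0 higher and 6 lower under hepatocyte marker scaling. The highest were Got1 (1.77), the mitochondrial pyruvate carrier subunit Mpc1 (1.60) and glycerol kinase Gk (1.44), and the lower ones were Ldhb (-1.21) and G6pc3 (-0.95). Between PZH administration and normal control rats 1 of the 16, Gpd1 (-1.08), was called.

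Of 22 tested glycogen genes outside the members, 7 fell and 5 rose in the DEN model group, with a median of 0.14 on the log2 scale, and hepatocyte marker scaling gave 1 lower and 18 higher. Of all genes 20.5% were called lower and 25.3% higher with TMM scaling, so the number of glycogen genes that rose was near that of genes at large, and the same was so with hepatocyte marker scaling. Phosphorylase of the brain type, Pygb, rose by 2.70 on the log2 scale (SE 0.28, edgeR adjusted p = 0.00027), and the phosphoglucomutase Pgm2 (1.15) and the glycogen primer glycogenin Gyg1 (1.11) were the next highest. The glycogen-targeting subunits Ppp1r3g (-4.02) and Ppp1r3c (-2.06) and the ubiquitin ligase Nhlrc1 (-1.98) were the lowest called. The Ppp1r3g value had an SE of 0.95 and uneven normal control counts of 37, 719 and 190 in N1, N12 and N3, against 49, 12 and 43 in M13, M17 and M24. Between PZH administration and DEN model rats 1 of the 22 was higher, and Pygb (-1.51), the muscle-type synthase Gys1 (-1.02) and Pgm2 (-0.80) were lower, 4 in all or 18.2% of the list against 19.1% of all genes, with 0 higher and 15 lower under hepatocyte marker scaling. Against normal control 0 of the 22 were called by edgeR, with 2 higher at an unadjusted p under 0.05, and DESeq2 called 1.

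Of 7 further genes of fructose and polyol use, 5 fell and 1 rose in the DEN model group, and hepatocyte marker scaling gave 0 lower and 3 higher. Those that fell included sorbitol dehydrogenase Sord (-1.70) and glycerate kinase Glyctk (-1.59). Aldose reductase Akr1b1, which makes sorbitol from glucose, rose by 2.54 on the log2 scale (SE 0.25, edgeR adjusted p = 0.00022). It was lower in the PZH administration than in the DEN model group (-1.31) and higher there than in the normal control group (1.20, edgeR adjusted p = 0.049). Tkfc, a triokinase of fructose breakdown, was higher in the PZH administration than in the DEN model group (1.39), and hepatocyte marker scaling gave 0 higher and 3 lower in that comparison.

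Of 18 tested genes of the hormonal control of glucose output, 14 fell and 0 rose in the DEN model group, with a median of -1.47 on the log2 scale, and hepatocyte marker scaling left 2 lower and made 6 higher. Those that fell included Tat (-3.33), an amino acid catabolic enzyme induced by glucocorticoids, and the nuclear receptor Nr0b2 (-2.91). Hnf4a (-1.64) fell too, and it is also among the hepatocyte markers, so that hepatocyte marker scaling reads it partly against itself. Between PZH administration and DEN model rats 8 of the 18 were higher and 0 lower, among them Gckr (2.18) and Pfkfb1 (2.15), a kinase and phosphatase that tunes glycolysis, whereas hepatocyte marker scaling gave 1 higher and 6 lower. Against normal control 3 were lower in edgeR's test, Cebpb (-1.68), Nr0b2 (-1.66) and Tat (-1.31), and 0 were called with hepatocyte marker scaling, where 4 of the 18 had an unadjusted p under 0.05.

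Shares within a gene family do not depend on the scaling of the libraries, and were taken per rat from FPKM. Pygl made up 98.3%, 96.9% and 97.3% of the summed FPKM of Pygl, Pygb and Pygm in N1, N12 and N3, 75.8%, 87.2% and 77% in M13, M17 and M24, and 96.5%, 94% and 95.1% in G27, G28 and G42. All DEN model rats lay below all other rats. The means were 97.5% ± 0.718, 80% ± 6.28 and 95.2% ± 1.24 (SD, n = 3), and both differences from the DEN model group had an exact two-sided permutation p of 0.1, the smallest that 3 rats against 3 allow (0.1125 adjusted over 18 tests of shares).

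The share of Gys2 in Gys2 and Gys1 followed the same order, at 96.5% ± 0.760, 81.5% ± 6.48 and 95.5% ± 0.457 (SD, n = 3). So did that of G6pc in G6pc and G6pc3, at 98.65% ± 0.570, 81.1% ± 6.70 and 95.9% ± 1.60, although with counts in place of FPKM its differences of -17.56, 14.78 and -2.78 percentage points in the 3 comparisons became -7.32, 6.28 and -1.04. Neither had a DEN model rat within the range of another group (exact permutation p = 0.1 each). Slc2a2 made up 97.9% ± 0.919 of the summed FPKM of Slc2a1, Slc2a2, Slc2a3 and Slc2a5 in normal control, 91.3% ± 5.89 in DEN model and 96.6% ± 0.351 in PZH administration rats, and M17 (96.16%) lay just under G28 (96.19%). Without M24 the differences of the DEN model from normal control and of PZH administration from the DEN model were -3.35 and 2.04 percentage points, in place of -6.61 and 5.30. Pck1 made up 99.8% ± 0.0517 of Pck1 and Pck2, then 96.5% ± 2.005 and 99.4% ± 0.0696, with no overlap between any groups, and the difference between PZH administration and DEN model went from 2.93 to 1.91 percentage points without M13.

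Ppp1r3b accounted for 38.3%, 17.1% and 34.6% of the 5 glycogen-targeting subunit genes Ppp1r3b, Ppp1r3c, Ppp1r3d, Ppp1r3e and Ppp1r3g in N1, N12 and N3, for 12.7%, 16.9% and 12.4% in M13, M17 and M24, and for 37.5%, 28% and 33% in G27, G28 and G42. N12 came within a small margin of M17, so the separation from normal control rested on that narrow gap, while the PZH administration rats stood clear of the DEN model rats (exact permutation p = 0.1 in each). In the 6 families, 4 of the PZH administration shares were also below and apart from normal control, those of Pygl, Slc2a2, Pck1 and G6pc, with differences of -2.29, -1.31, -0.354 and -2.78 percentage points (exact permutation p = 0.1 each). The Slc2a2 difference was -0.856 without N3, and its gap was very narrow, between G27 at 96.89% and N12 at 96.94%. The gap was also small for Pygl, between G27 (96.46%) and N12 (96.88%), and for G6pc, between G28 (97.71%) and N1 (98.02%).

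**Figure D3:**
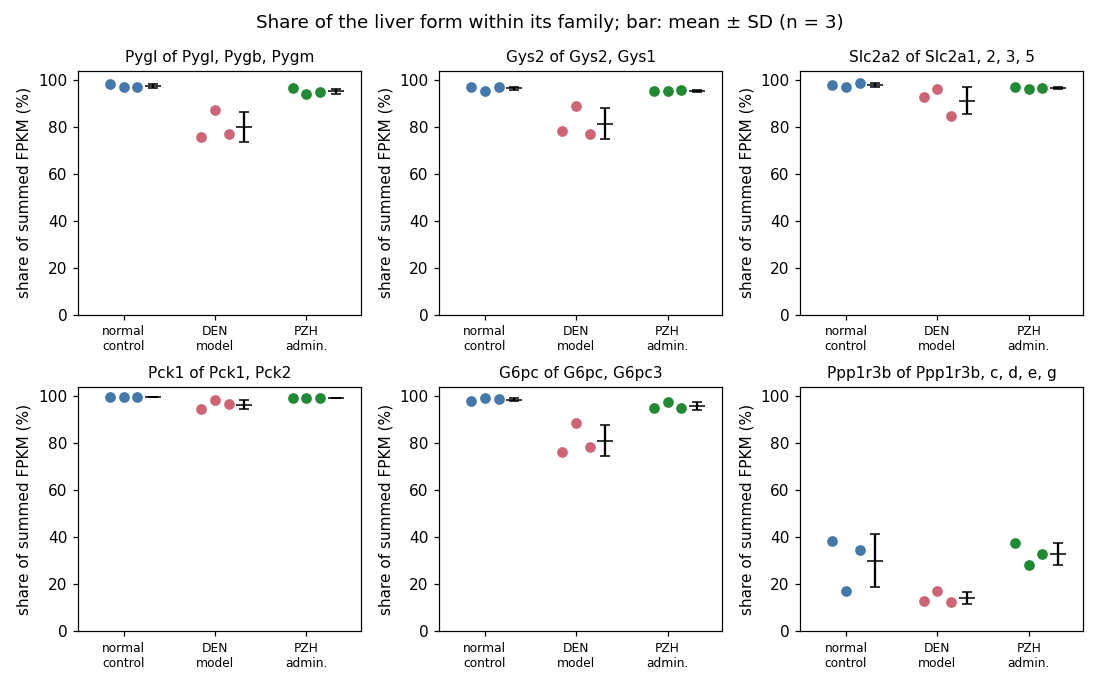
Share of the liver-type gene in the summed FPKM of its family (percent, axes from 0) for 6 families, with a point for each rat and the mean ± SD of 3 rats. The DEN model rats lie below the other groups in each family, as for Pygl (75.8% to 87.2% against 96.9% to 98.3% in normal control), and by little for Slc2a2 and, against N12, for Ppp1r3b.

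Ratios between members in the same rat are also free of library scaling. The log2 ratio of Pck1 to Pck2 counts was 9.42 ± 0.37 in normal control, 5.42 ± 0.98 in DEN model and 7.93 ± 0.19 in PZH administration rats (SD, n = 3), with no overlap between any groups. For Fbp1 to Pck1, enzymes of the same route, the log2 ratios were -2.58 ± 0.12, -1.76 ± 0.29 and -2.64 ± 0.06, the DEN model rats being apart from both other groups. For G6pc to Slc37a4, the phosphatase and its feeder, the log2 ratio was 2.61 ± 0.40 in normal control and 1.37 ± 0.17 in DEN model rats, which were apart. At 1.48 ± 0.68 the PZH administration rats overlapped with the DEN model rats. They lay below the normal control rats by a very narrow gap, with G28 at 2.272 and N1 at 2.275, while G27 and G42 were at 1.04 and 1.14. The ratio of phosphorylase to synthase, Pygl to Gys2, was 0.72 ± 0.32 in normal control, 1.40 ± 0.11 in DEN model and 1.15 ± 0.24 in PZH administration rats, of which the first 2 groups were apart. Each difference without overlap had an exact two-sided permutation p of 0.1, or 0.164 adjusted over 18 tests of ratios, which 3 rats in each group cannot lower.

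The choice of scaling sets the direction of several members. Library totals in place of TMM factors moved the middle of all fitted log2 changes by 0.86 in the DEN model against normal control, by -0.67 in the PZH administration against DEN model and by 0.23 in the PZH administration against normal control comparison, and scaling to the hepatocyte markers shifted it by 2.15, -1.76 and 0.42. The share of called genes that were higher went from 55.3% to 89.5% and 98.1%, from 45.7% to 8.89% and 1.08%, and from 78% to 90% and 94.5%, for library totals and hepatocyte markers in that order. With library totals, 8 members were called in the DEN model against normal control (1 higher, 7 lower), where 63.7% of all genes were called and 6.72% called lower. There were 6 called in the PZH administration against DEN model comparison, where Pck2 was lower (-1.28, edgeR adjusted p = 0.0071) and G6pc, Pck1, Slc37a4, Khk and Ppp1r3b higher, with 43.8% of all genes called and 3.9% called higher.

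Hepatocyte marker scaling reads a gene against the geometric mean of the markers, which themselves changed by unlike amounts. With it, G6pc (-1.18, edgeR adjusted p = 0.003), Pck1 (-0.73, edgeR adjusted p = 0.036) and Ppp1r3b (-1.35, edgeR adjusted p = 0.0038) were still lower in DEN model than in normal control rats. Pck2 (3.32), Pygl (1.20) and Slc2a2 (0.88) were higher, and Khk (-0.64), Gys2 (0.51), Slc37a4 (0.13) and Fbp1 (0.09) were not called. Of all genes, 88.5% were called with this scaling, 1.68% lower. The 9 members other than Pck2 lay below 2.15, the median shift of all genes between this fit and the TMM fit. That placing follows from their negative TMM values and is not a separate result. In the PZH administration against DEN model comparison Ppp1r3b was higher (1.27, edgeR adjusted p = 0.021) and Pck2 lower (-2.40, edgeR adjusted p = 9.8e-05), with 81.7% of all genes called. Against normal control 0 members were called in edgeR's test with this scaling, and 2 had an unadjusted p under 0.05.

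**Figure D4:**
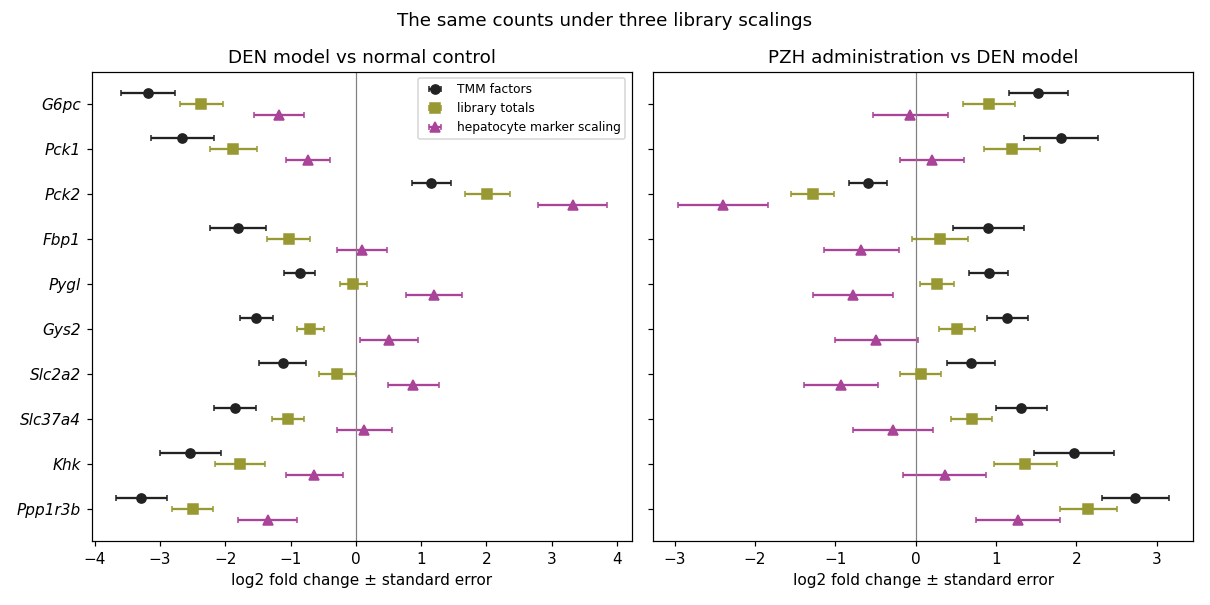
Log2 fold change ± standard error of each gene (x axis) in the DEN model against normal control (left) and PZH administration against DEN model (right) comparisons, with TMM factors (circles), library totals (squares) and hepatocyte marker scaling (triangles), 3 rats against 3. Ppp1r3b keeps its sign under all 3 scalings in both panels (-3.28, -2.50 and -1.35 on the left), whereas Pygl goes from -0.86 to -0.04 and 1.20.

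The genes whose pattern over the 9 rats was closest to the members were found by the root mean square difference of centered log2(CPM + 1) among 13023 genes, as a description. Khk was nearest to Grhpr (0.143), which reduces glyoxylate and hydroxypyruvate. Ppp1r3b was nearest to Mbl2 (0.239), a secreted lectin made by the liver, G6pc to Hacl1 (0.289), a peroxisomal enzyme of fatty acid breakdown, and Fbp1 to Aldh1l2 (0.0953), a mitochondrial folate enzyme. Pck1 was nearest to Lrp3 (0.131), Gys2 to Tbc1d24 (0.0994), Pygl to Itpr2 (0.0768), an intracellular calcium channel, and Pck2 to Plcd1 (0.133), a phospholipase. Among the members, Pck1 and Khk were each other's nearest (0.222), as were Gys2 and Slc37a4 (0.255). Pygl, Slc2a2 and G6pc had Gys2 (0.335), Gys2 (0.310) and Pck1 (0.564) as nearest members. Ppp1r3b had Pck1 (0.505) and Fbp1 had Slc37a4 (0.301), while Pck2 had no close member, its nearest being Pygl at 0.895. The values share libraries and scaling, so they were not tested.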

How the data were processed

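Liver mRNA-Seq (Illumina NovaSeq) of 9 rats was used, grouped by the letter of the rat names. The authors deposited 1 table with raw read counts per gene and rat, not normalized, and FPKM values that they scaled for length and library size. Group means, fold changes and p-values by the authors in the same table were not used. The labels list fastp, HISAT2 2.1.0, StringTie 1.3.3b and edgeR 3.30.3 without roles, and build, strand setting and treatment of reads shared by similar genes are not given in the sources used here. Counts were tested in R 4.3.3 with edgeR 4.0.16 (filterByExpr, TMM, glmQLFit and glmQLFTest, Benjamini-Hochberg over all genes tested) using only the 6 rats compared and no covariate, and a gene was called at an adjusted p under 0.05. The code was tested on simulated data, in which edgeR recovered 50.9% of log2 changes of 1 and 98.9% of log2 changes of 2 in either direction. Those data held no general shift between groups, so they do not test the choice of scaling. The simulated spread was the same for all genes. It was smaller than that of some members, as Khk in the DEN model rats (coefficient of variation 69.6%), so these recovery rates need not hold here. Each rat's CPM used TMM factors over all 9 rats, and total counts of 14922973 to 27161496 limit precision at few reads. Shares used FPKM, and log2 ratios used counts with a pseudocount of 0.5. Both were compared by exact permutation tests. Pattern likeness used genes with a mean of at least 1 CPM.

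All members were named, and of each pathway list the 3 highest and 3 lowest called genes in each comparison. The nearest gene and member in pattern were named too. Some genes that this rule names, and the ratios that need them, are not reported here, but stay in the counts over lists and tests. Members and lists were chosen with earlier results of these data known. Listed genes with no entry under their symbol (Phka2, Nr3c1, Mlxipl, Ahsg, Pecam1, Cd79a) were not analysed here. Macrophage (6 genes), endothelial (5) and lymphocyte (4 tested) markers gave 2 lower, 2 higher and 2 lower, and 2 higher calls in the DEN model against normal control, and 3, 1 and 1 lower calls in PZH administration against DEN model. Against normal control, PZH administration rats had 6 cholangiocyte, 4 stellate and 1 endothelial marker higher, and 0 hepatocyte, macrophage or lymphocyte markers called by edgeR. Alternatives were DESeq2 1.42.0, library totals, hepatocyte marker scaling (geometric mean of the marker counts), no count filter, at least 10 counts in every rat, all 9 rats in one fit, the study's screen, an absolute log2 fold change above 1, each rat left out, G27 thinned to the next deepest library, shares of counts and ratios of FPKM.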

Additional observations from a re-analysis of the deposited data

How the results depend on the processing

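With edgeR's test and TMM factors, 10, 7 and 1 members were called in the DEN model against normal control, PZH administration against DEN model and PZH administration against normal control comparisons, and of the 63 other pathway genes tested 45, 22 and 5. Of all genes 45.8%, 19.1% and 5.21% were called. In that order, hepatocyte marker scaling called 6, 2 and 0 members, against 88.5%, 81.7% and 7.32% of all genes. The study's screen called 4, 1 and 0 members and 7, 4 and 0 other genes, against 12.3%, 2.43% and 2.32% of all genes. The 7 other genes were thus near the share of all genes. Leaving out 1 rat gave 7 to 10, 0 to 9 and 0 to 4 members and 32 to 47, 4 to 34 and 2 to 8 other genes. The share of all genes called then ran from 32.7% to 45.7%, 1.87% to 22.6% and 1.51% to 9.73%. The lowest counts came without M13, M13 and, for the last, N12, N3 or G42 for members and N1, N12 or G28 for others. The highest came without M17, M17 and G27. In PZH administration against normal control, DESeq2 called 3 members and 8 other genes, against 6.82% of all genes. Hepatocyte marker scaling called 2 other genes there, and at least 10 counts in every rat 3 other genes. With hepatocyte marker scaling the log2 fold change turned in the DEN model against normal control for Fbp1 (0.094), Pygl (1.20), Gys2 (0.51), Slc2a2 (0.88) and Slc37a4 (0.13), in PZH administration against DEN model for G6pc (-0.065), Fbp1 (-0.68), Pygl (-0.785), Gys2 (-0.49), Slc2a2 (-0.93) and Slc37a4 (-0.28), and in PZH administration against normal control for Gys2 (0.024). In that last comparison Pygl turned without N3 (-0.061) and without G27 (-0.112), within a range of -0.112 to 0.107 over the rats left out. In shares of counts in place of FPKM, the difference was -7.32, 6.28 and -1.04 percentage points for G6pc in the 3 comparisons, 26.2 for Ppp1r3b in the second and -0.261 for Pck1 in the last. The causes were not tested. The other alternatives kept the number of members called within 1.5 times. No paired analysis was possible because the groups share no replicate numbers. Depth limits what can be said of genes near the floor of 3 counts.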

Other observations

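The normal control rats differed among themselves in genes that set glycogen and glucose output, which was noticed after their values were seen. Ppp1r3g, a glycogen-targeting phosphatase subunit, had 37 counts in N1, 719 in N12 and 190 in N3, and Ppp1r3c, another such subunit, had 1935, 3794 and 1184 counts. G6pc had 14395, 30640 and 19317 counts in the same rats, whose total counts lay between 16115709 and 16412520. N12 was the highest of the 3 in each of these genes, while Ppp1r3b had 2603, 2309 and 1794 counts and was highest in N1. In the PZH administration rats Ppp1r3g had 225, 89 and 10 counts in G27, G28 and G42, and in the DEN model rats 49, 12 and 43 counts in M13, M17 and M24. With 3 rats in each group these differences between single rats were not tested.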
